A study of Mus musculus with 16 samples.

Results

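The genes described here encode 9 nuclear receptors of the hepatocyte: Rxra, Rxrb, Ppara, Ppard, Hnf4a, Nr3c1, Nr1h4, Nr1h3 and Nr5a2. They are named receptors of the liver, chosen with earlier results of these data known. A crosslink cluster counted to a gene when its midpoint lay inside the gene on the same strand (GENCODE M21, mm10). By this rule the 9 genes held 2704 of 1331383 clusters, 408 of 35942 enriched peaks and 61 of 8478 peaks of the authors' reproducible lists.

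PGC-1α is a transcriptional coactivator of the fasting liver that also carries RNA-binding motifs. It was immunoprecipitated with crosslinked RNA by seCLIP, a single-end form of eCLIP, from mouse primary hepatocytes of the C57BL/6J strain. All cells spent a night in starvation medium and received ultraviolet light (254 nm, 400 mJ/cm2), and the labels call the control cells untreated, while the others received 200 nM glucagon, the fasting hormone of the pancreas, for 3 h. RNA was taken from a lower and an upper band, whose sizes the labels do not give, with 2 replicates of each treatment and band. This gave 8 immunoprecipitated (IP) libraries, the ones analysed, in 4 groups of 2, named below by treatment and band (control-lower, control-upper, glucagon-lower and glucagon-upper). The series also lists 8 input libraries. Nothing in the labels tells if replicates came from different cultures or animals, or if both bands of a replicate came from the same cells. P-values below therefore cover the spread among libraries alone, and that spread may be technical.

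Nuclear receptors are transcription factors with a DNA-binding and a ligand-binding domain. RXRα, the product of Rxra, is the shared partner of many of them: PPARα and PPARδ (fatty acid sensors), FXR (the bile acid receptor, gene Nr1h4) and LXRα (the oxysterol receptor, gene Nr1h3) bind DNA as pairs with an RXR. HNF4α works as a pair with itself, the glucocorticoid receptor (gene Nr3c1) mostly likewise, and LRH-1 (gene Nr5a2) as a single molecule. The measurement here is not of receptor proteins on DNA. It is of PGC-1α on the transcripts of the receptor genes.

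The values are the authors'. Each cluster, a region of piled-up reads, has a log2 fold over input and a −log10 p-value, and a cluster counted as an enriched peak when both were at least 3. The IP libraries held 26279 to 260814 clusters, of which 1.5% to 3.73% were enriched, and their read depth is unknown. Glucagon-lower replicate 1 stood apart with 26279 clusters, against 97629 in the next smallest library. In it 21.9% of clusters reached the fold, against 3.15% to 12% in the others, so results are also given without it where that changes them. Hepatocyte RNAs were present (10 of 10 markers had clusters, 3575 in all and 319 to 648 per library, none of them enriched). Markers of other liver cells had few: 5 clusters for 5 Kupffer cell genes, 1 for 5 endothelial genes, 6 for 5 stellate cell genes, 23 for 5 cholangiocyte genes and 0 for 3 erythroid genes.

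Sequence could be read for a few stretches of these genes, in the GENCODE M21 transcripts and in the RefSeq start-site windows (GRCm38.p6, the same build as mm10). They are shown because they hold PGC-1α clusters or border the intron that does. In Rxra all enriched peaks lay in intron 1, which splits the coding sequence just behind its start. The first line gives the 28 coding bases of exon 1 (chr2:27677433-27677460), with the start codon in capitals, and the second the first 30 bases of exon 2 (chr2:27737299-27737328). The third line is a stretch inside that intron, the 250 bases before an alternative RefSeq start (chr2:27709042-27709291, plus strand), with clusters in capitals.
Rxra exon 1, coding end: ATGgacaccaaacatttcctgccgctcg
Rxra exon 2, first bases: acttctctacccaggtgaactcttcgtccc
Rxra intron 1, inner window: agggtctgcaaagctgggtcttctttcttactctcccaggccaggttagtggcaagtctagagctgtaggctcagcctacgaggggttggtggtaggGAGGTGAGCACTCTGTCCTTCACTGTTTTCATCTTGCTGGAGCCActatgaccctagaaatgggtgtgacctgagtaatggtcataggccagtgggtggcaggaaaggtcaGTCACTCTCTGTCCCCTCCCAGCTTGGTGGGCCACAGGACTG

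The capitals in the inner window are 3 clusters that overlapped it, none of them enriched. Control-lower replicate 2 had one with a log2 fold of 2.20 and glucagon-lower replicate 2 one with 3.54 (−log10 p 2.66), which together form the first run of capitals. Control-lower replicate 1 had the other, with a log2 fold of 3.14 and a −log10 p of 2.94, just under the p threshold. The window falls in a stretch of the intron with few clusters, described below.

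Ppard carried 71 of its 74 peaks in intron 2, and 1 of them fell on a noncoding exon inside it (Ppard-204, chr17:28271708-28271887, plus strand), printed with that peak in capitals. The peak came from glucagon-upper replicate 2 (chr17:28271806-28271829, log2 fold 4.18, −log10 p 3.76). Glucagon-lower replicate 2 had an overlapping cluster with a log2 fold of 3.43 that missed the p threshold (−log10 p 2.40).
Ppard intron 2, noncoding exon: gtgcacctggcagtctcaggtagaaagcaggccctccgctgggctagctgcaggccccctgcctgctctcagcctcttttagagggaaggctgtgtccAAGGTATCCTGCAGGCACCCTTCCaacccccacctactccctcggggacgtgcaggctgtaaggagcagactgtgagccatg

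For comparison, Ppara and Hnf4a each had an enriched peak at a 5′ end. The Ppara line gives the 57 bases of a peak of glucagon-upper replicate 1 (chr15:85735719-85735811, log2 fold 4.86) that lie before the start of the principal transcript, Ppara-202. They were 75.4% G and C, against 53.8% over 32851 RefSeq windows of 300 bases. The Hnf4a line gives the coding part of a peak of control-lower replicate 2 (chr2:163547221-163547394, log2 fold 3.03, −log10 p 10.9), 90 bases from the start codon, in capitals, onward.
Ppara, upstream of the principal transcript: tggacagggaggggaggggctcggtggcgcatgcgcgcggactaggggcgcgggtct
Hnf4a exon 1, coding part of the peak: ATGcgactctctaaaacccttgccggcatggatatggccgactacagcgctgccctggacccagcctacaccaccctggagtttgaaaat

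The first question was which receptor transcripts carried enriched PGC-1α peaks. Rxra and Ppard did: they held 325 and 74 of the 408 enriched peaks of the 9 genes, and 54 and 7 of the 61 listed ones. The remaining 9 enriched peaks were spread over Hnf4a (5), Ppara (2), Nr3c1 (1) and Nr1h4 (1), and Rxrb, Nr1h3 and Nr5a2 had none. A listed peak was thus present in 2 of 9 genes. Of 13209 genes with a cluster, 1244 had one (9.42%).

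Rxra (chr2:27676440-27762957, plus strand, ENSMUSG00000015846.14) had clusters in every library. There were 89 and 91 in the control-lower pair (replicates 1 and 2), 127 and 127 in the control-upper pair, 29 and 95 in the glucagon-lower pair, and 76 and 127 in the glucagon-upper pair. Enriched among them were, in the same order, 40 and 40, 34 and 49, 1 and 41, and 37 and 83. Thus 7 libraries had between 34 and 83 Rxra peaks, and glucagon-lower replicate 1 had a single one.

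As a share of the gene's clusters this was 44.9% and 44.0% in the control-lower pair, 26.8% and 38.6% in the control-upper pair, 3.45% and 43.2% in the glucagon-lower pair, and 48.7% and 65.4% in the glucagon-upper pair. The mean was 39.4% ± 18.0 (SD, n = 8 libraries) against a mean library share of 2.89%. Rxra was above its library in 7 of 8 libraries, by 36.5 percentage points on average (exact two-sided sign flips, p = 0.0156, adjusted p = 0.0245 over 3910 genes). Of those genes 7.03% passed in the upward direction, and by mean share Rxra ranked 25 of 3910. Among intronic clusters alone its share was 40.5% against 3.87% in the libraries (exact sign flips, adjusted p = 0.0309). Without glucagon-lower replicate 1 the mean share was 44.5% ± 11.6.

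In the exception, glucagon-lower replicate 1, Rxra clusters reached the fold but seldom the p-value. Of its 29 Rxra clusters 20 reached a log2 fold of 3, but their −log10 p stayed at or under 4.27 and passed 3 in 1 cluster only. The median log2 fold of Rxra clusters there was 3.20, within the 2.82 to 3.36 of the other libraries. Folds were high throughout that library, however, with a median of 1.62 over all its clusters, against 0.91 to 1.44 in the others. The Rxra fold there is thus not shown to be unchanged. Of all its clusters 5.84% passed the p threshold, against 3.52% to 9.17% in the others. Over all libraries 77 Rxra clusters reached the fold without the p-value. Another 133 reached the p-value without the fold.

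Rxrb (chr17:34031812-34038399), the gene of the second RXR, was the contrast within the subfamily. It is a short gene of 6588 nt against the 86518 nt of Rxra. Of its 47 clusters 9 lay outside every annotated exon, while 24 lay in an intron of some annotated transcript. Counts were 5 and 4 in the control-lower pair, 7 and 12 in the control-upper pair, 1 and 6 in the glucagon-lower pair, and 2 and 10 in the glucagon-upper pair. None was enriched, and none reached a −log10 p of 3. Its share of 0 passed the sign-flip test as below the library (exact, adjusted p = 0.0135), as 61.4% of the 3910 genes did. That call is weak, since a gene with 0 enriched peaks gets the smallest p whatever its depth: 0 of 47 allows a share of up to 6.38%, and the library shares would give 1.29 enriched peaks in so few clusters. This limit and the binomial intervals below cover counting error only.

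**Figure D1:**
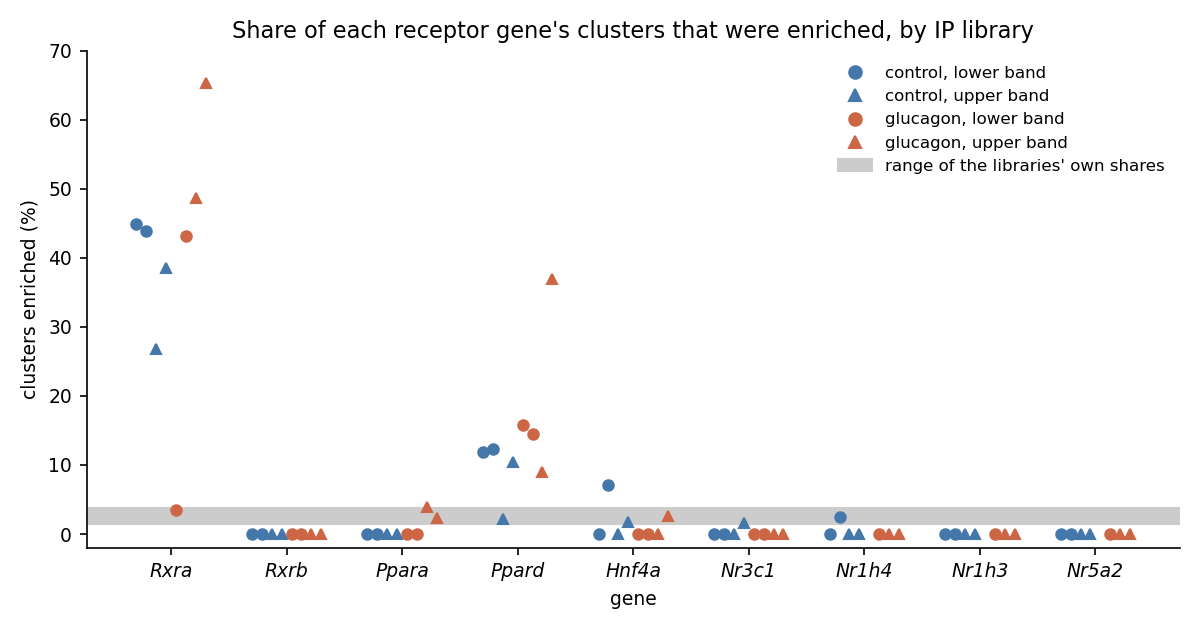
Percent of each gene's clusters that were enriched (vertical axis) in each of the 8 IP libraries for the 9 genes (horizontal axis); points are libraries, colour is treatment, shape is band, a library without a cluster of the gene has no point, and the grey band is the range of the libraries' own shares. Rxra lies between 26.8% and 65.4% in all libraries but glucagon-lower replicate 1 (3.45%), Ppard between 2.25% and 36.9%, and the other 7 genes at 0 in most libraries, with highest values of 7.14% in Hnf4a and 3.85% in Ppara.

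Ppard (chr17:28232700-28301474, plus strand), which encodes PPARδ, a broadly expressed fatty acid sensor, came next. It had 59 and 65 clusters in the control-lower pair, 89 and 67 in the control-upper pair, 19 and 69 in the glucagon-lower pair, and 67 and 84 in the glucagon-upper pair. Enriched were 7 and 8, 2 and 7, 3 and 10, and 6 and 31. Every library had at least 2 peaks, and glucagon-upper replicate 2 had by far the most.

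The share was 11.9%, 12.3%, 2.25%, 10.4%, 15.8%, 14.5%, 8.96% and 36.9% in that order, a mean of 14.1% ± 10.1 (SD, n = 8). It exceeded the library share in 8 of 8 libraries, by 11.2 percentage points (exact sign flips, p = 0.00781, the smallest this test can give, adjusted p = 0.0135, rank 179 of 3910). Without glucagon-upper replicate 2 the excess was 8.10 points (adjusted p = 0.0260). With a −log10 p of at least 5 it was 4.04 points and no longer passed (adjusted p = 0.0594).

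Ppara (chr15:85734983-85802819), the gene of PPARα, the main fatty acid sensor of the fasting hepatocyte, gave another picture. Its clusters numbered 14 and 14 in the control-lower pair, 39 and 36 in the control-upper pair, 3 and 50 in the glucagon-lower pair, and 26 and 42 in the glucagon-upper pair. Only 2 of the 224 were enriched, 1 in each glucagon-upper library (0.893%, exact 95% binomial interval 0.108% to 3.19%). The mean share of 0.778% ± 1.49 was below the library share by 2.11 points (exact sign flips, adjusted p = 0.0245), but not with a log2 fold of at least 4 (adjusted p = 0.931). Without that stricter fold 61.4% of the 3910 genes passed as lower.

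Hnf4a (chr2:163506808-163572910), a master regulator of hepatocyte identity, had 28 and 42 clusters in the control-lower pair, 44 and 57 in the control-upper pair, 4 and 26 in the glucagon-lower pair, and 14 and 38 in the glucagon-upper pair. The 5 enriched of 253 comprised 3 in control-lower replicate 2 and 1 each in control-upper replicate 2 and glucagon-upper replicate 2. All lay within the first coding exon and the intron behind it (Hnf4a-201), between positions 163547221 and 163548889. The share of 1.44% ± 2.52 did not pass against the library (exact sign flips, adjusted p = 0.179). Control-lower replicate 2 was the 1 library in which Hnf4a lay above the library share. Without it the mean difference was −2.22 points with 0 libraries above, so the lack of a call rested on control-lower replicate 2. With a log2 fold of at least 4 and all 8 libraries the share passed as lower (exact sign flips, adjusted p = 0.0117). There no Hnf4a peak was left, so the smallest p was fixed in advance, and 66.8% of the 3910 genes passed as lower.

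Nr3c1 (chromosome 18, minus strand), the gene of the glucocorticoid receptor, had 331 clusters: 27 and 51 in the control-lower pair, 64 and 65 in the control-upper pair, 1 and 53 in the glucagon-lower pair, and 19 and 51 in the glucagon-upper pair. A single one, in control-upper replicate 2, was enriched (0.302%, interval 0.00765% to 1.67%). Its share was below the library in 8 of 8 libraries (mean difference −2.69 points, exact sign flips, adjusted p = 0.0135). In that direction 61.4% of the 3910 genes passed, and glucagon-lower replicate 1 entered with 1 Nr3c1 cluster.

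The bile acid, oxysterol and LRH-1 receptors had no cluster in glucagon-lower replicate 1, so the sign-flip test over 8 libraries left them out. Nr1h4 (chr10:89454234-89533585, minus strand) had 1 enriched peak among 196 clusters (0.510%), in control-lower replicate 2. Nr5a2 (chr1:136842571-136960448, minus strand), whose product drives bile acid synthesis genes, had 0 of 310, which allows a share of up to 0.968% and lies under the lowest library share. Nr1h3 (chr2:91184061-91202834, minus strand) had 0 of 63, with an interval that reaches 5.69%. That limit is above the library shares, so these clusters are too few to tell 0 from a library-like share. Of the Nr1h3 clusters 5 also lay inside an overlapping gene, Gm13783. Tested over the other 7 libraries, all 3 genes passed as lower than the library, and 6 of the 9 genes did so in place of 3, beside 65.4% of the 5887 genes tested there. For Nr1h3 and Nr5a2, as for Rxrb, the call itself carries nothing, since a gene with 0 enriched peaks lies below every library whatever its depth.

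The second question was where on the transcripts the clusters lay. Intron 1 of Rxra (Rxra-201, chr2:27677461-27737298) is 59838 nt long, 74.0% of the gene's intron length. It held 734 of the 761 clusters and all 325 enriched peaks. The other 8 introns, 21014 nt together, held 8 clusters and 0 enriched peaks. Per kb of intron this was 12.3 clusters in intron 1 and 0.381 in the rest. Exons and UTRs of any annotated Rxra transcript held 21 clusters with no enriched peak, 18 of them in the 3′ UTR.

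Within intron 1 enriched peaks were unevenly placed. The first 5 kb held 73 of the 325, and 61.3% of the clusters there were enriched. Per library these were 8 and 10 (control-lower), 10 and 9 (control-upper), 0 and 11 (glucagon-lower), and 9 and 16 (glucagon-upper). The next 4 stretches of 5 kb held 41, 32, 29 and 33 peaks, and 37.2% to 54.7% of their clusters were enriched. From 25 to 30 kb there were 9 peaks and from 30 to 35 kb 2 among 25 clusters, where the inner window printed above lies. Numbers were high again 35 to 40 kb into the intron with 49 peaks, which were 5 and 8, 6 and 7, 0 and 8, and 5 and 10. From 55 kb to exon 2 there were 3 clusters. In 7 libraries both the first 5 kb and the stretch at 35 to 40 kb held at least 5 peaks, as the plot of clusters along the introns shows.

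Most of these sites were deep in the intron. Of the 325 Rxra peaks 21 (6.46%) lay within 500 nt of an annotated exon. They were short, with a median length of 55 nt, and had a median log2 fold of 3.65. The one with the largest fold was an 87 nt peak of glucagon-upper replicate 2 at chr2:27728224-27728310 (log2 fold 5.77, −log10 p 12.6). Values were coarse: the 325 peaks held 237 distinct pairs of fold and p-value within libraries.

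**Figure D2:**
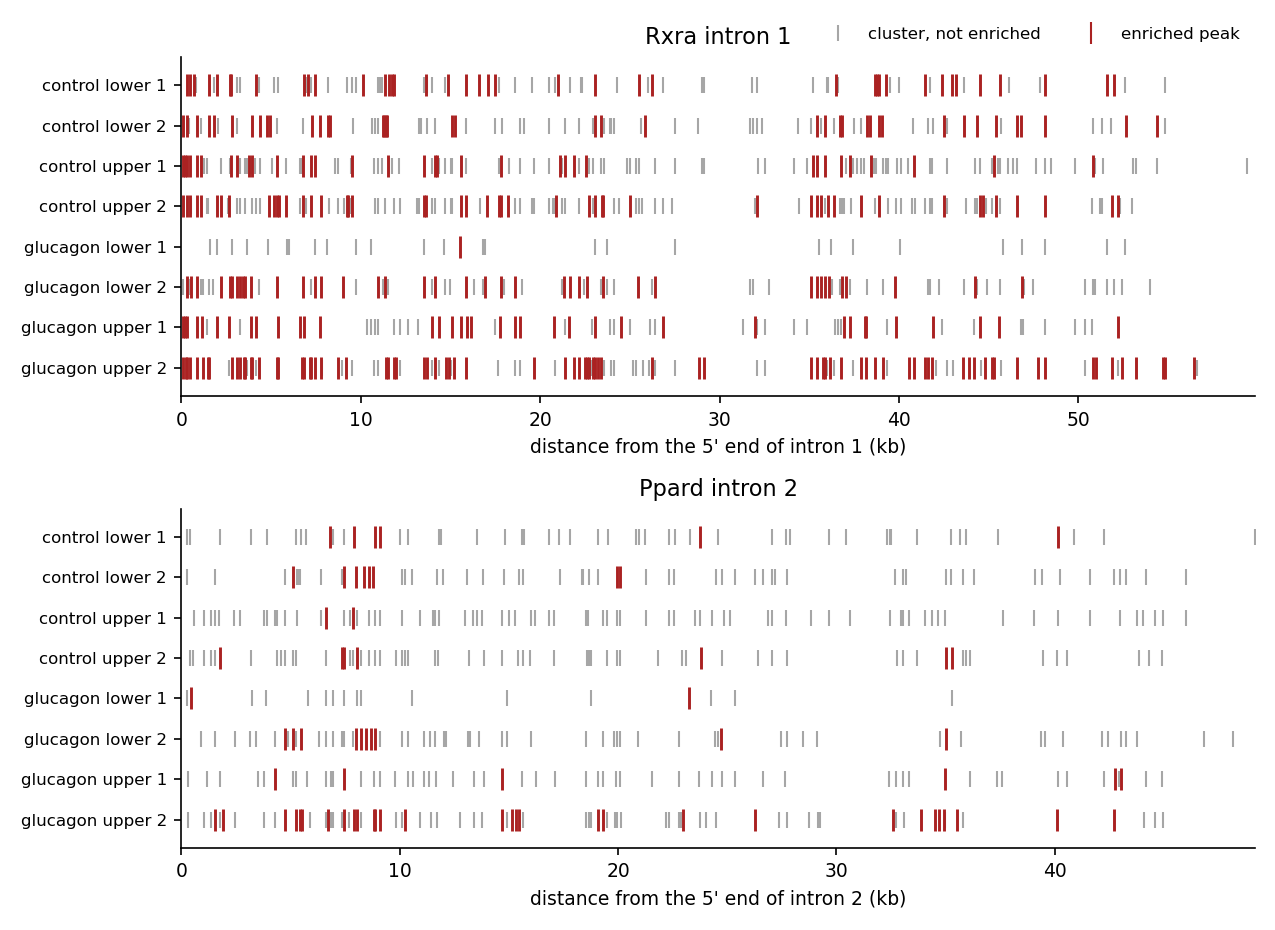
Clusters along Rxra intron 1 (upper panel) and Ppard intron 2 (lower panel), by distance from the 5′ end of the intron in kb (horizontal axis) and IP library (rows); red marks are enriched peaks and grey marks other clusters. In Rxra the red marks run over most of the intron, with most in the first 5 kb (73 peaks) and at 35 to 40 kb (49) and fewest at 30 to 35 kb (2) and past 55 kb (1), and in Ppard they are most frequent at 5 to 10 kb (33).

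Intron 2 of Ppard (Ppard-201, chr17:28237096-28286260, 49165 nt), which lies before the coding sequence, held 467 of the 519 clusters and 71 of the 74 enriched peaks. Of these 71, 33 lay 5 to 10 kb into the intron, where 35.5% of clusters were enriched. By library they were 4 and 6 in the control-lower pair, 2 and 3 in the control-upper pair, 0 and 7 in the glucagon-lower pair, and 1 and 10 in the glucagon-upper pair. The remaining 38 were scattered over the intron, with 0 to 7 per 5 kb. The other 3 of the 74 were 2 in intron 1 and 1 in a 5′ UTR exon.

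Long introns with clusters were not a property of Rxra and Ppard alone. Intron 2 of Nr3c1 measured 57217 nt and held 235 clusters, intron 5 of Nr5a2 49606 nt with 188, and intron 2 of Ppara 40642 nt with 197. Their enriched peaks numbered 0, 0 and 1. Per kb of the longest intron there were 12.3 clusters in Rxra and 9.50 in Ppard, against 4.11 in Nr3c1, 3.79 in Nr5a2 and 4.85 in Ppara. The median log2 fold in these introns, taken per library, ran from 2.82 to 3.36 in Rxra, from 2.05 to 3.47 in Ppard and from 1.61 to 2.76 in Ppara. It ran from 0.72 to 1.27 in Nr3c1 and from 0.65 to 2.07 in Nr5a2. The Rxra medians lay above those of Nr3c1 and Nr5a2 in all 7 libraries with clusters in those introns. The ranges of Ppard and Ppara overlapped, with Ppard above Ppara within each of the 8 libraries.

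**Figure D3:**
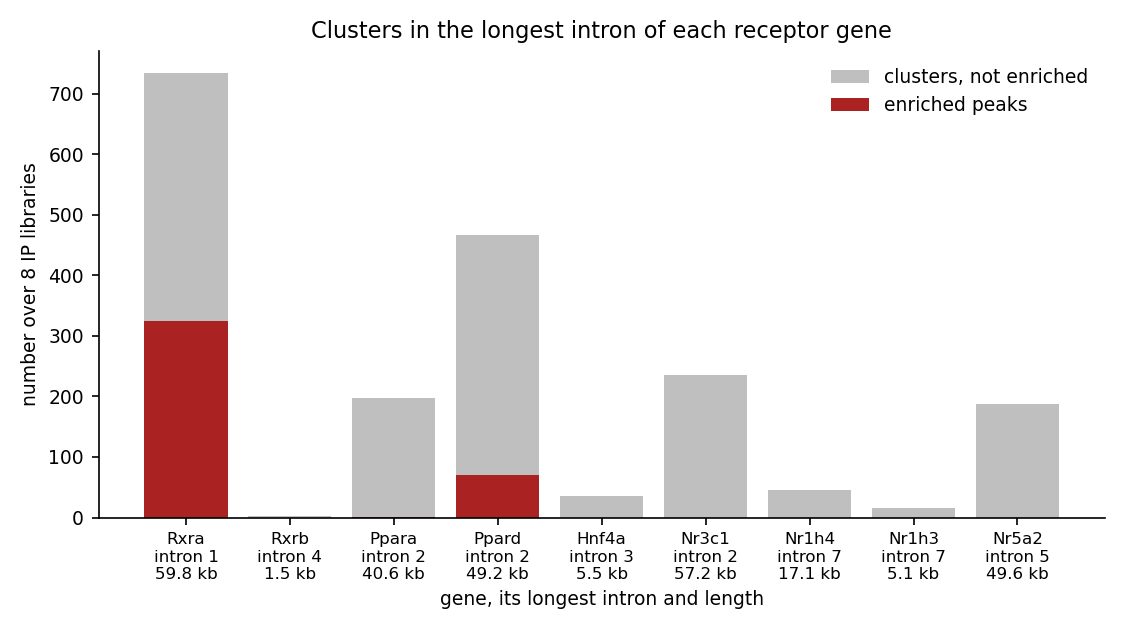
Number of clusters over the 8 IP libraries (bars, vertical axis) in the longest intron of each gene, with its number and length under the bar; the red part is enriched peaks. Nr3c1 intron 2 (235 clusters) and Nr5a2 intron 5 (188) have no red part, while Rxra intron 1 has 325 enriched peaks of 734 clusters and Ppard intron 2 has 71 of 467.

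The third question was whether the same places recurred between libraries. Merged by overlap, the 325 Rxra peaks formed 173 regions covering 11124 nt. Of these 97 were enriched in 1 library, 40 in 2 and 10 in 5 or more, and none in all 8. The most recurrent, chr2:27677627-27677832, began 166 nt into the intron and was enriched in 7 libraries. Its highest log2 fold was 4.52 and 3.93 in the control-lower pair, 3.33 and 4.38 in the control-upper pair, 3.01 in glucagon-lower replicate 2, and 4.52 and 4.33 in the glucagon-upper pair. Glucagon-lower replicate 1 had no cluster there.

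Regions enriched in 6 libraries began 804 nt (chr2:27678265-27678388) and 6708 nt (chr2:27684169-27684304) into the intron. Of the 173 regions, 62 were enriched in both treatments, 51 in control libraries and 60 in glucagon libraries alone, 29 of the last in glucagon-upper replicate 2 alone. Single regions were not tested for treatment.

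**Figure D4:**
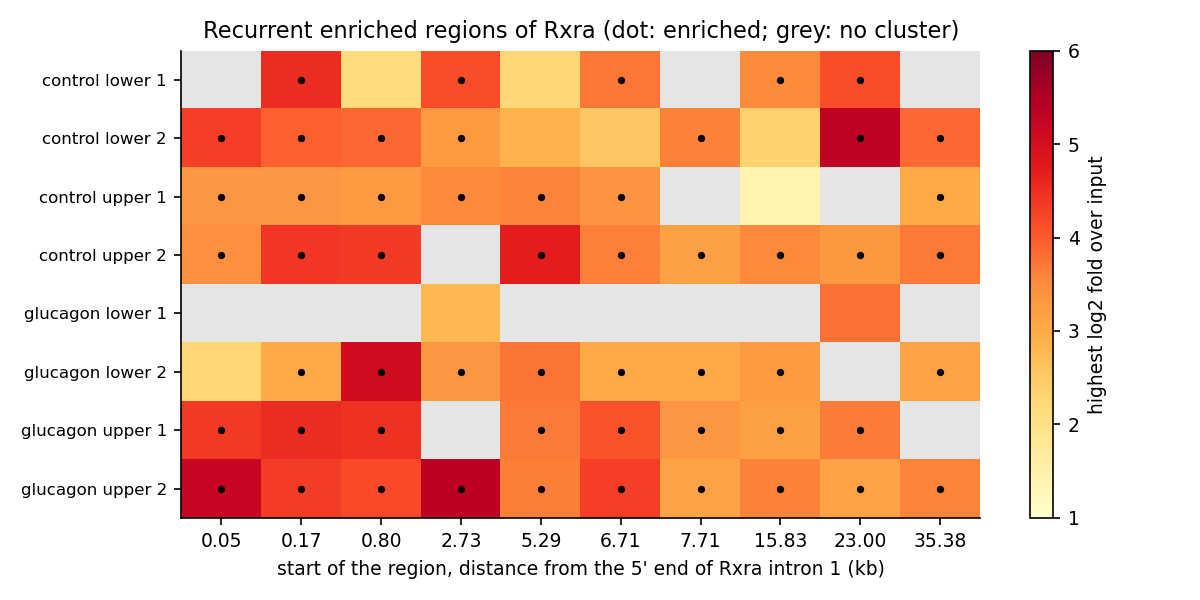
Highest log2 fold over input (colour) of the clusters of each IP library (rows) in the 10 Rxra regions enriched in 5 or more libraries (columns, by the distance of their start from the 5′ end of intron 1 in kb); a dot marks an enriched peak and grey a library without a cluster. Glucagon-lower replicate 1 has a cluster in 2 of the 10 regions and no dot, and 7 of the 10 regions start within 8 kb of the 5′ end.

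The 74 Ppard peaks, far fewer than those of Rxra, formed 52 regions. Of these 40 were enriched in 1 library, 20 of them in glucagon-upper replicate 2, and none in more than 4. The 4 regions enriched in 4 libraries began 7408, 7986, 8626 and 34927 nt into intron 2. At the first (chr17:28244504-28244593) all 8 libraries had a cluster, with highest log2 folds of 2.99 and 4.31 in the control-lower pair, 1.91 and 3.68 in the control-upper pair, 4.47 and 2.28 in the glucagon-lower pair, and 4.11 and 4.23 in the glucagon-upper pair. Control and glucagon values overlapped there.

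In the authors' deposited lists Rxra had 12 peaks in the control-lower pair, 22 in the control-upper pair, 0 in the glucagon-lower pair and 20 in the glucagon-upper pair, all in intron 1. Their log2 folds ran from 3.28 to 5.15, from 3.08 to 4.62 and from 3.12 to 4.97 in the authors' deposited lists that had any. Of these listed peaks 7 of 12, 13 of 22 and 13 of 20 shared at least 1 base with an enriched peak in each library of their own group. Of the 22 listed for the control-upper pair 19 overlapped an enriched peak of a glucagon-upper library, and of the 20 listed for the glucagon-upper pair 12 overlapped one of a control-upper library. For the 12 of the control-lower pair the number was 4, all from glucagon-lower replicate 2, since replicate 1 had none.

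Ppard had 1, 1, 0 and 5 listed peaks in the same order, all in intron 2, in the authors' deposited lists. The control peaks lay at chr17:28244538-28244590 and chr17:28245092-28245163. The 5 of the glucagon-upper pair began at chr17:28244504-28244578 (log2 fold 4.23 in the authors' deposited list) and ended at chr17:28279796-28279868. Of those 5, 4 shared bases with an enriched peak in each library of the group, and 2 overlapped one in a control-upper library.

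The fourth question was whether the receptors' share of called clusters differed between glucagon and control. Each cluster counted once whatever its number of reads, and 1.5% to 3.73% of a library's clusters were enriched. No member passed. Clusters per 100000 of the library were compared on a log2 scale with a pseudocount of 1 (limma, with band as a covariate, adjusted over 6247 genes with at least 40 clusters). Of those genes 2.43% passed, 66 higher and 86 lower, and with the replicate number as a block 236 passed in place of 152, again without a member. Fewer crosslinks per transcript, less transcript per cell and fewer cells holding it cannot be told apart in these libraries. The median over all fitted genes was −0.24 on the log2 scale, so a member at that value moved with the typical gene. Scaling by the median gene moved this median to 0.01 and each member up by about the same amount.

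Rxra had 67.1 and 51.0 clusters per 100000 in the control-lower pair, 52.9 and 48.7 in the control-upper pair, 110 and 50.5 in the glucagon-lower pair, and 77.8 and 61.1 in the glucagon-upper pair. The upper band libraries with glucagon exceeded their controls, and the lower band libraries overlapped. The log2 difference was 0.39 ± 0.27 (SE, 95% interval −0.23 to 1.01, limma adjusted p = 0.482). Ppard had 44.5 and 36.5, 37.1 and 25.7, 72.3 and 36.7, and 68.6 and 40.4 in the same order, a log2 difference of 0.55 ± 0.30 (interval −0.13 to 1.24, limma adjusted p = 0.425). Neither interval excluded 0. With the replicate block the Ppard interval was 0.07 to 1.04 (limma adjusted p = 0.208), and Ppard was higher with glucagon in all 4 same-numbered pairs (exact flips within pairs, p = 0.125, the smallest they can give). Without glucagon-lower replicate 1 the Rxra difference was 0.18.

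Ppara, Hnf4a and Nr1h4 separated fully in both bands without passing. Ppara was higher with glucagon: 10.6 and 7.85 against 11.4 and 26.6 in the lower band, and 16.2 and 13.8 against 26.6 and 20.2 in the upper band (log2 difference 0.74 ± 0.31, limma adjusted p = 0.353). Such a separation upward was seen in 6.87% of the fitted genes. Hnf4a was lower with glucagon, with 21.1 and 23.6 against 15.2 and 13.8 in the lower band and 18.3 and 21.9 against 14.3 and 18.3 in the upper band (log2 difference −0.44 ± 0.23, limma adjusted p = 0.421). Here the upper bands almost touched. Nr1h4 was lower too, with 17.3 and 22.4 against 0 and 10.1, and 18.7 and 18.4 against 2.05 and 9.15 (log2 difference −2.23 ± 0.72, limma adjusted p = 0.199). A downward separation was seen in 12.2% of genes. For each of the 3 the exact two-sided permutation within bands gave p = 0.0556, the smallest that its 36 assignments allow.

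Nr1h4, the bile acid receptor gene, had the largest difference of the 9. With control there were 23 to 48 clusters, and with glucagon 0, 19, 2 and 19. Without glucagon-lower replicate 2 the log2 difference was −2.84. That fit left glucagon-lower replicate 1, with 0 Nr1h4 clusters, as the only glucagon library of the lower band. With the replicate block Nr1h4 did not pass (limma adjusted p = 0.0768). Its log2 difference ran from −2.84 to −1.45 with a library left out.

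The remaining genes overlapped in at least 1 band. Nr3c1, whose groups overlapped in the lower band alone, differed by −0.66 ± 0.52 on the log2 scale, Nr1h3 by −0.95 ± 0.65, Nr5a2 by −0.72 ± 0.96 and Rxrb by 0.02 ± 0.40 (limma adjusted p from 0.480 to 0.980). Nr3c1 and Nr1h3 were lower with glucagon in all 4 same-numbered pairs (exact flips within pairs, p = 0.125 each). Without glucagon-lower replicate 1 their differences were −0.05 and −0.38. For Nr5a2 the sign rested on glucagon-lower replicate 1, without which the difference was 0.41. Rxrb changed sign when single libraries were left out.

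**Figure D5:**
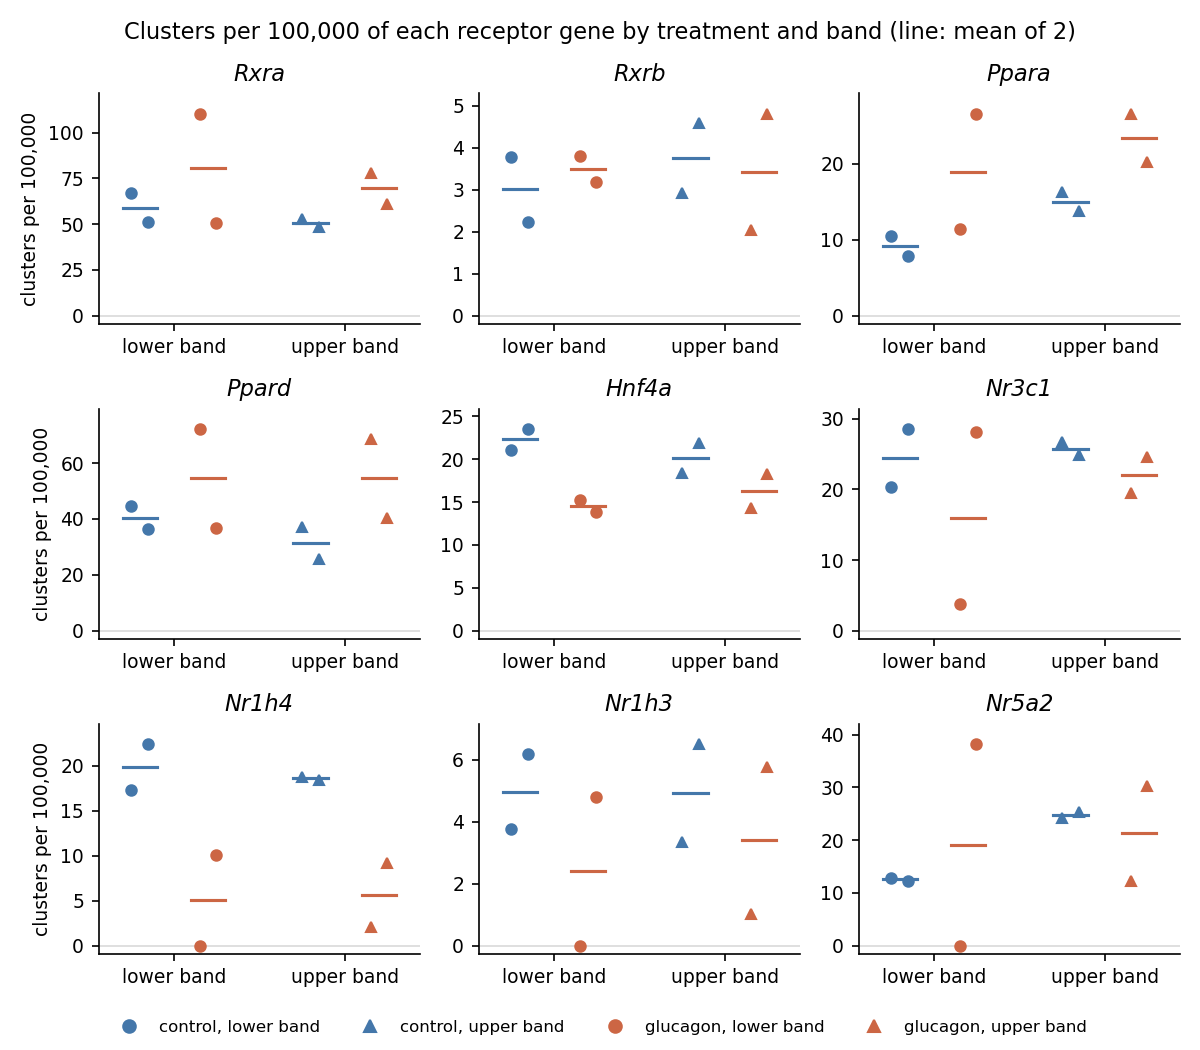
Clusters per 100000 clusters of the library (vertical axis, a separate scale in each panel) for each gene, by band (horizontal axis); points are the 2 replicates, lines their mean, blue is control and orange glucagon. Glucagon points lie above the control points in both bands for Ppara, and below them in both bands for Hnf4a and Nr1h4, and overlap the controls in at least 1 band for the other 6 genes.

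Enriched peaks were also compared, per 1000 enriched peaks of the library. Rxra had 9.73 and 7.02 in the control-lower pair, 6.90 and 7.51 in the control-upper pair, 1.02 and 14.6 in the glucagon-lower pair, and 11.3 and 10.9 in the glucagon-upper pair. The mean difference was 1.65 (exact permutation within bands, p = 0.722). Without glucagon-lower replicate 1 the remaining glucagon libraries exceeded all control libraries of their band, with a difference of 5.03 (exact permutation, p = 0.0556, adjusted p = 0.531). Without glucagon-lower replicate 2 the difference was −1.74. The direction for Rxra thus turned on a single library.

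Ppard had 1.70 and 1.4, 0.41 and 1.07, 3.06 and 3.55, and 1.82 and 4.08 in that order. All 4 glucagon libraries lay above all 4 control libraries, with means of 3.13 ± 0.96 and 1.15 ± 0.56 (SD, n = 4 each). The difference of 1.98 had the smallest p the design allows (exact permutation within bands, p = 0.0556) and an adjusted p of 0.600 over 1966 genes with enriched peaks in at least 2 libraries. A separation upward in both bands was seen in 1.58% of those genes. None of the 1966 passed by this test, and 182 had the smallest p.

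No member passed for a difference between bands. The log2 difference of upper and lower band was −0.16 for Rxra (95% interval −0.78 to 0.46), −0.17 for Ppard (interval −0.86 to 0.51) and 1.31 for Nr5a2, with limma adjusted p from 0.703 to 1.00 over the 9 genes. The glucagon effect did not differ detectably between bands in any of them (limma adjusted p = 1.00 for the interaction, with an interval of −1.28 to 1.46 for Rxra). Over all 6247 genes limma called 0 for the band and 0 for the interaction. At an unadjusted p under 0.05 these were 92 higher and 37 lower, and 11 and 3.

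To place the 9 genes, the other 40 receptors of the superfamily were counted. Of these 24 had a cluster, 10 an enriched peak and 6 a listed peak. Over all genes with a cluster 23.1% had an enriched peak and 9.42% a listed one. Rora, a circadian and metabolic receptor, had 1250 clusters, 92 enriched and 32 listed peaks, more clusters and fewer enriched peaks than Rxra. Its share was 7.23%, above the library in 8 of 8 libraries (exact sign flips, adjusted p = 0.0135). Esrra, the estrogen-related receptor that works with PGC-1α on mitochondrial genes, had 18 enriched of 90 clusters and 5 listed peaks, with a share of 21.1% (adjusted p = 0.0245 by exact sign flips, higher in 7 of 8).

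Rara, the retinoic acid receptor that pairs with RXRα, had 54 enriched of 298 clusters and 7 listed peaks. Its share of 15.2% missed the threshold (exact sign flips, adjusted p = 0.0558). Nr2f6, Nr2c2 and Nr1d2 had 2, 1 and 1 listed peaks. Nr6a1, a receptor of germ cells and early embryos, was the reverse case, with 630 clusters and 0 enriched. By share Rxra therefore stood above every other receptor tested, and Ppard below Esrra and Rara, though differences between receptors were not tested.

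Nr4a3, an early-response receptor, was the 1 superfamily gene of 15 fitted that passed for glucagon. It had 0 clusters in each control library, but 3, 16, 10 and 15 with glucagon (limma adjusted p = 0.00395). None of these was enriched.

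Known target genes of the receptors were counted from 5 lists. The 23.1% and 9.42% are shares of genes with a cluster, so they compare only with the targets that had clusters. Of 14 PPARα targets 11 had clusters, 2 an enriched and 1 a listed peak. That gene was Cpt1a, the gatekeeper of mitochondrial fatty acid oxidation, with 119 enriched of 612 clusters and 36 listed peaks (share 19.0%, higher in 8 of 8, exact sign flips, adjusted p = 0.0135). Of 8 LXRα targets 6 had clusters and 2 had listed peaks, Srebf1 and Lpcat3. Srebf1, the master gene of fatty acid synthesis, had 39 enriched of 199 clusters and 10 listed. Lpcat3, a phospholipid-remodelling enzyme, had 10 enriched of 274 clusters and 1 listed. Of 6 FXR targets 3 had clusters, with 315 of the 339 in Abcb4, and none had an enriched peak.

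The 10 glucocorticoid receptor targets all had clusters, and 3 had listed peaks, which were Klf9 (5), Fkbp5 (1) and Per1 (1). Of 7 HNF4A and LRH-1 targets 5 had clusters and 1 had listed peaks, Scarb1, the HDL receptor (2). None of these 4 passed for its enriched share (exact sign flips, adjusted p from 0.0659 to 0.412). In cluster number the glucocorticoid list was the one of the 5 with calls for glucagon: 4 of 10 genes passed, all higher, against 1.06% higher over all fitted genes. They were Tat, Pck1, G6pc and Sgk1 (limma adjusted p from 0.00556 to 0.0401; named after their values were seen). They include enzymes of amino acid breakdown and gluconeogenesis and had 1 enriched peak among them. The treatment was glucagon, and whether the glucocorticoid receptor acted on these genes was not tested. The list was also made with earlier results of these data known. The FXR, LXRα, PPARα, HNF4A and LRH-1 lists had 0 calls of 1, 4, 6 and 5 genes fitted.

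The protein-coding genes whose clusters were distributed most like those of Rxra over the 8 libraries were Slc2a1, Lpcat3, Akap1, Rpl3 and Ahdc1. Their mean absolute difference from Rxra, after centring each gene's log2 clusters per 100000, was 0.08 to 0.10, against a median of 0.65 over 6093 genes. All points share the same 8 libraries.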

How the data were processed

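The submitters' processing notes name cutadapt, STAR and the mm10 build, without versions. Which program called the clusters, and by what rule the reproducible lists were made, is not given in the sources used here. The deposited cluster files have no header and 2 value columns, read from their ranges as a deposited −log10 p-value (capped at 400) and a deposited log2 fold over input. Input libraries were not analysed here. Read depth is unknown, so cluster number limits the precision.

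Clusters were given to every gene holding their midpoint on the same strand (GENCODE M21), which matched bedtools with a difference of 0 pairs in each of the 8 libraries. Clusters per 100000 (pseudocount 1, genes with at least 40 clusters) were fitted with limma 3.58.1 on treatment and band. Enriched shares were tested by 256 sign flips (genes with a cluster in each library), in which bands counted as separate units. Enriched peaks were tested by permutation within bands. All p-values were Benjamini-Hochberg adjusted over all genes tested. The steps were tested on simulated data. Python 3.11.15, pandas 2.3.3, scipy 1.17.1, bedtools 2.31.1 and R 4.3.3 were used.

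The labels do not say that replicate numbers pair libraries, but same-numbered libraries deviated together in all 6 pairs of groups (r = 0.15 to 0.54 across 6247 genes, which are not independent replicates), so a fit with the replicate block is given where it changes a count.

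The 9 genes and all lists were chosen with earlier results of these data known. Named were the 9 genes, the 5 protein-coding genes most like Rxra, the 6 other receptors with most listed peaks, receptors passing for glucagon, and targets with a listed peak. Nr6a1 was named after its values were seen. Alternatives covered thresholds, scaling, pseudocount, filters, overlap rules, the block and each library left out.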

Additional observations from a re-analysis of the deposited data

Results flagged for a closer look

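In 3 genes a rule for outlying values flagged 1 of the 8 libraries by the percent of clusters enriched. For Ppard it was glucagon-upper replicate 2 with 36.9%, the next highest being 15.8%. For Hnf4a it was control-lower replicate 2 with 7.14%, from 3 of 42 clusters. For Nr3c1 it was control-upper replicate 2 with 1.54%, from 1 of 65 clusters, the others being at 0. Chance flags about 1 in 20 groups, and shares resting on 1 to 3 peaks are easily flagged. Rxra was not flagged, though glucagon-lower replicate 1 was at 3.45% and the others at 26.8% to 65.4%. Nor was Nr1h4, at 2.5% in control-lower replicate 2 and at 0 in the other libraries with clusters.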

How the results depend on the processing

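The calls of Rxra and Ppard as above their library held with a log2 fold of at least 2 or 4, with intronic clusters, with any overlap, and with each library left out (2 genes called each time). With a −log10 p of at least 5, 1 gene was called, Rxra. Genes called higher numbered 139 with a fold of at least 4, in place of 275, and genes called lower 835 among intronic clusters, in place of 2400; fewer genes enter the second. Leaving out a library gave 2 to 6 of the 9 genes lower, 215 to 351 genes higher and 2236 to 3850 lower, the upper ends without glucagon-lower replicate 1.

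For glucagon the replicate block called 236 genes in place of 152 and changed no other call of the 9 genes. Leaving out a library gave 39 to 387 genes, with 387 and 373 without glucagon-lower replicates 1 and 2, and 0 to 1 of the 9 genes. Log2 differences with glucagon then ran from 0.18 to 0.62 for Rxra, 0.48 to 0.94 for Ppara, 0.36 to 0.78 for Ppard, −0.53 to −0.38 for Hnf4a, −1.09 to −0.05 for Nr3c1, −2.84 to −1.45 for Nr1h4, −1.39 to −0.38 for Nr1h3, −0.13 to 0.24 for Rxrb and from −1.71 to 0.41 for Nr5a2. Rxrb could not be fitted without replicate 2 of either upper band. Between bands they ran from −0.39 to 0.056 for Rxra, −0.066 to 0.30 for Rxrb, −0.096 to 0.079 for Hnf4a, −0.086 to 0.95 for Nr3c1, −0.45 to 0.94 for Nr1h4 and −0.28 to 0.73 for Nr1h3, none called. Median centring turned the band differences of Rxrb (−0.16) and Hnf4a (−0.24), as did a pseudocount of 2 for Hnf4a (−0.00037). The difference of Rxra in enriched peaks turned with a fold of at least 2 (−0.14) and as plain peak numbers (−0.25), and ran from −1.74 to 5.03 with a library left out. The cause of these turns was not tested. Listed Rxra peaks numbered 13 with a log2 fold of at least 4. The number of listed peaks enriched in both libraries of their group was 37, and 35 with an overlap of 50%. Cluster counts of few reads limit Rxrb, Nr1h3 and glucagon-lower replicate 1 most.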
